A study of Mus musculus with 6 samples.

Results

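Aminoacyl-tRNA synthetases were selected from the count table by gene symbol among the protein-coding genes, with the suffix 2 taken to mark the mitochondrial enzyme. The rule found 37 of the 58735 genes in the table, 20 for the cytosol and 17 for mitochondria, and all 37 had enough counts to be tested. RNA-Seq covered 22Rv1, a human prostate cancer cell line. The 3 parental libraries came from cells given vehicle, and the 3 resistant libraries came from 22Rv1 BL-B01D1_R, a subline kept in rising concentrations of BL-B01D1. BL-B01D1 is an antibody-drug conjugate that binds EGFR and HER3 and carries Ed-04, a camptothecin-type inhibitor of topoisomerase I. The subline stands for 1 selection, and nothing in the labels says that the libraries of a group were separate cultures, so p-values measure the spread between these libraries only.

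These enzymes join each amino acid to its tRNA before translation. The cytosol and the mitochondria use separate sets, both encoded in the nucleus. GARS and KARS supply both compartments from 1 gene each, and mitochondria make glutaminyl-tRNA indirectly, from a glutamate loaded by EARS2. By the fold of the catalytic domain the enzymes fall into class I and class II. In the cytosol, 8 of the members listed here (EPRS, IARS, LARS, QARS, MARS, KARS, RARS and DARS) are held in a multisynthetase complex by the scaffold proteins AIMP1, AIMP2 and EEF1E1. ATF4, a transcription factor of the integrated stress response, is known to induce many cytosolic synthetase genes when amino acids are short. A list of 13 of these was used here (AARS, CARS, EPRS, GARS, IARS, LARS, MARS, NARS, SARS, TARS, VARS, WARS and YARS).

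Counts on genes totaled between 13821639 and 17251491 per library, and the synthetases took 0.571% to 0.577% of them in parental cells and 0.509% to 0.517% in resistant cells. All 9 prostate luminal markers examined had more than 3 counts in a library of each group, with a summed level of 3380 to 3480 CPM (counts per 1000000 counts, with library sizes scaled by TMM) in parental cells and 3578 to 3664 CPM in resistant cells. Of the 10 markers of immune, endothelial, fibroblast and neuroendocrine cells, 4 passed that level in each group (COL1A1, DCN, CHGA and SYP), with sums of 151.5 to 164 and 123 to 131 CPM. CHGA, a neuroendocrine granule protein, accounted for most of that difference, at 39.4 CPM in parental and 8.18 CPM in resistant cells, and its part in the results on synthetases was not tested. PTPRC, CD3E, CD68, PECAM1, VWF and COL1A2 stayed at or under 3 counts in all libraries. In bulk RNA, fewer cells that express a gene and less RNA per cell cannot be told apart.

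In resistant cells, the mRNAs of 12 of the 20 cytosolic synthetases were lower and 1 was higher, whereas 1 of the 17 mitochondrial synthetases was lower and 1 was higher. At the ends of the range, NARS fell by 8.16% and MARS fell by 33.8%. A gene passed the test at an FDR of less than 0.05 in edgeR's quasi-likelihood fit, adjusted over all 17142 genes tested. Of all tested genes, 18.4% passed as lower and 17.1% as higher. Among the 8503 tested genes with a mean of 20 CPM or more, the shares were 23.5% and 21.6%. The median log2 fold change was -0.16 over the cytosolic members and 0.04 over the mitochondrial ones, beside 0.0038 over all tested genes. The study's methods add a second threshold, a log2 fold change beyond 1 in either direction. Of the synthetase genes 0 reached it, whereas 2.84% of tested genes passed both as lower and 2.53% as higher.

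**Figure D1:**
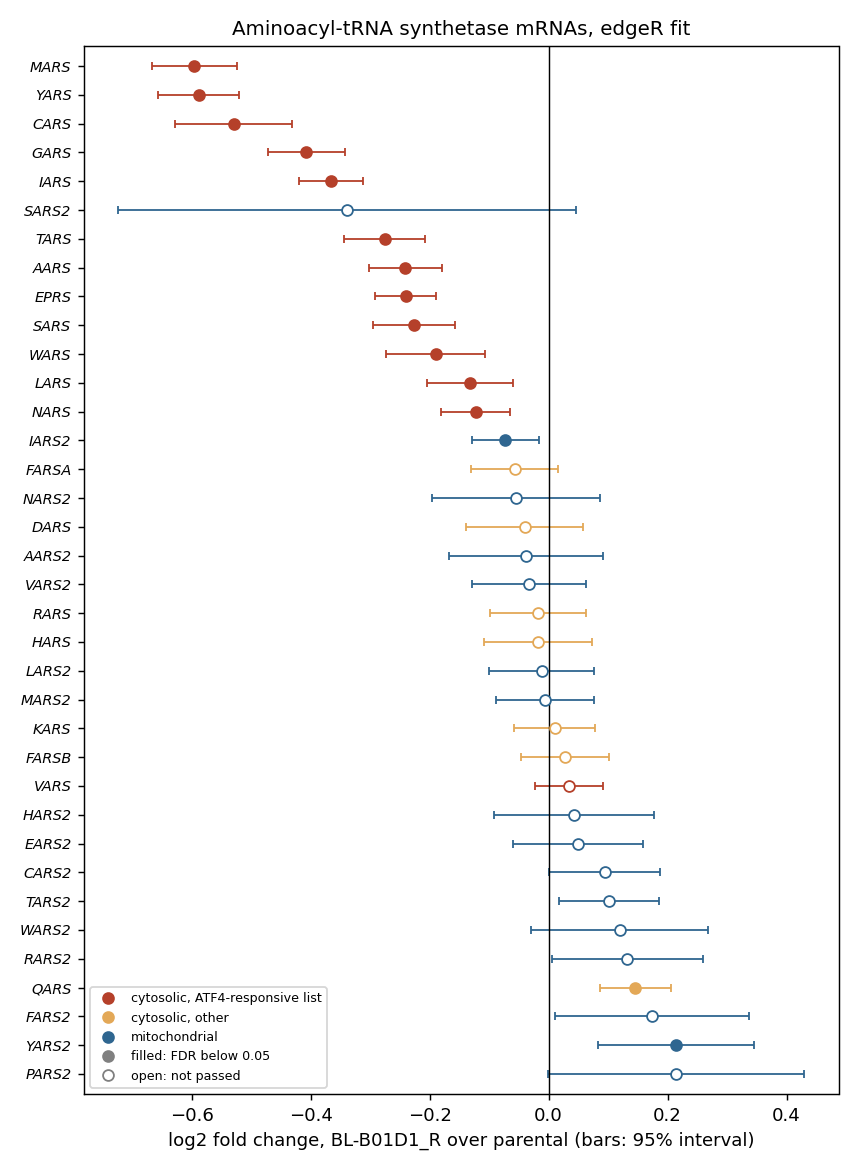
Log2 fold change of the synthetase genes reported by name, BL-B01D1_R over parental (x axis), with 95% intervals from the edgeR fit as bars and genes ordered by value (y axis). Filled points passed an FDR of 0.05, and the 12 filled red points, from MARS at -0.60 to NARS at -0.12, are all cytosolic genes of the ATF4-responsive list. That list was written with results for ATF4 targets in these libraries already known.

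The largest changes were seen in MARS, YARS and CARS. MARS (ENSG00000166986; chr12:57475445-57517569, forward strand, hg38) encodes methionyl-tRNA synthetase, which also loads the initiator tRNA. It was measured at 168, 177 and 174 CPM in parental libraries 1, 2 and 3 and at 113, 115 and 116 CPM in resistant libraries 1, 2 and 3. The groups lay far apart compared with the spread within either of them. The log2 fold change was -0.60 (SE 0.037, FDR 3.09e-17, edgeR). MARS overlaps DDIT3, the stress-response gene CHOP, by 982 bases on the opposite strand, and DDIT3 had 7.90% as many counts as MARS and a log2 fold change of -0.06 (FDR 0.742, edgeR).

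YARS (ENSG00000134684; chr1:32775237-32818153, reverse strand) encodes tyrosyl-tRNA synthetase. Its levels of 191, 189.5 and 188 CPM in parental libraries stood against 126, 125 and 127 CPM in resistant libraries, a log2 fold change of -0.59 (SE 0.035, FDR 8.14e-18, edgeR). The spread was smaller than for MARS, with an SD of 1.68 and 1.34 CPM (n = 3 each). S100PBP overlaps YARS on the opposite strand by 1387 bases, and its own log2 fold change was 0.09 (FDR 0.213, edgeR). CARS (ENSG00000110619; chr11:3000922-3057613, reverse strand), the cysteinyl enzyme, was the least expressed cytosolic member per gene length. It had 82.7, 81.0 and 84.6 CPM in parental libraries and 55.9, 54.5 and 61.4 CPM in resistant libraries, with the third resistant library nearest to the parental ones. The log2 fold change was -0.53 (SE 0.050, FDR 1.46e-11, edgeR), and it ranged from -0.58 to -0.495 with 1 library left out.

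GARS and IARS followed. GARS (ENSG00000106105; chr7:30594681-30634033, forward strand), which serves the cytosol and mitochondria with glycyl-tRNA, was at 275, 264 and 254 CPM in parental and 204, 196 and 198 CPM in resistant libraries, so it fell by 24.6%. No parental library came near the resistant ones. Its log2 fold change was -0.41 (SE 0.033, FDR 1.56e-13, edgeR), while GARS-DT, the noncoding transcript that starts at the same locus on the other strand, was higher (log2 fold change 0.26, FDR 2.29e-04). IARS (ENSG00000196305; chr9:92210207-92293756, reverse strand), the isoleucyl enzyme, was at 478, 484 and 469.8 CPM in parental and 377, 368 and 367 CPM in resistant libraries. The difference of -0.37 (SE 0.027, FDR 1.51e-14, edgeR) was well outside the spread within each group.

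Changes of an intermediate size were found in TARS, AARS, EPRS and SARS. TARS, the threonyl enzyme, was at 181, 184 and 188 CPM in parental and 157, 150.4 and 149 CPM in resistant libraries, with a log2 fold change of -0.28 (FDR 1.93e-08, edgeR). AARS, the alanyl enzyme, varied more between parental libraries (327, 352 and 358 CPM) than between resistant ones (290.1, 294 and 292 CPM), and its log2 fold change of -0.24 (FDR 3.32e-08, edgeR) ranged from -0.28 to -0.22 with 1 library left out. Both genes kept every resistant library under every parental one. EPRS, which carries the glutamyl and the prolyl enzyme in 1 chain, was the most abundant cytosolic member, at 603, 596 and 585 CPM in parental and 510.1, 508 and 492 CPM in resistant libraries (log2 fold change -0.24, FDR 6.24e-10, edgeR). SARS, which loads serine also onto the selenocysteine tRNA, was at 177, 169 and 174 CPM and at 145, 149 and 151 CPM (log2 fold change -0.23, FDR 1.35e-06, edgeR).

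The smallest falls that passed the test were those of WARS, LARS and NARS. WARS, the tryptophanyl enzyme, was at 99.6, 106 and 101 CPM in parental and 92.4, 88.3 and 88.6 CPM in resistant libraries, with the first resistant library nearest to the parental ones. Its log2 fold change was -0.19 (FDR 3.93e-04, edgeR). LARS, the leucyl enzyme, which is also known as a leucine sensor for mTORC1, was at 162, 163 and 151 CPM and at 143, 147 and 144 CPM (log2 fold change -0.13, FDR 0.0039, edgeR). NARS, the asparaginyl enzyme, was at 301, 303 and 297 CPM and at 273, 277 and 277 CPM (log2 fold change -0.12, FDR 8.49e-04, edgeR). The gap between the groups was narrow in LARS and clear in NARS, whose libraries varied less.

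**Figure D2:**
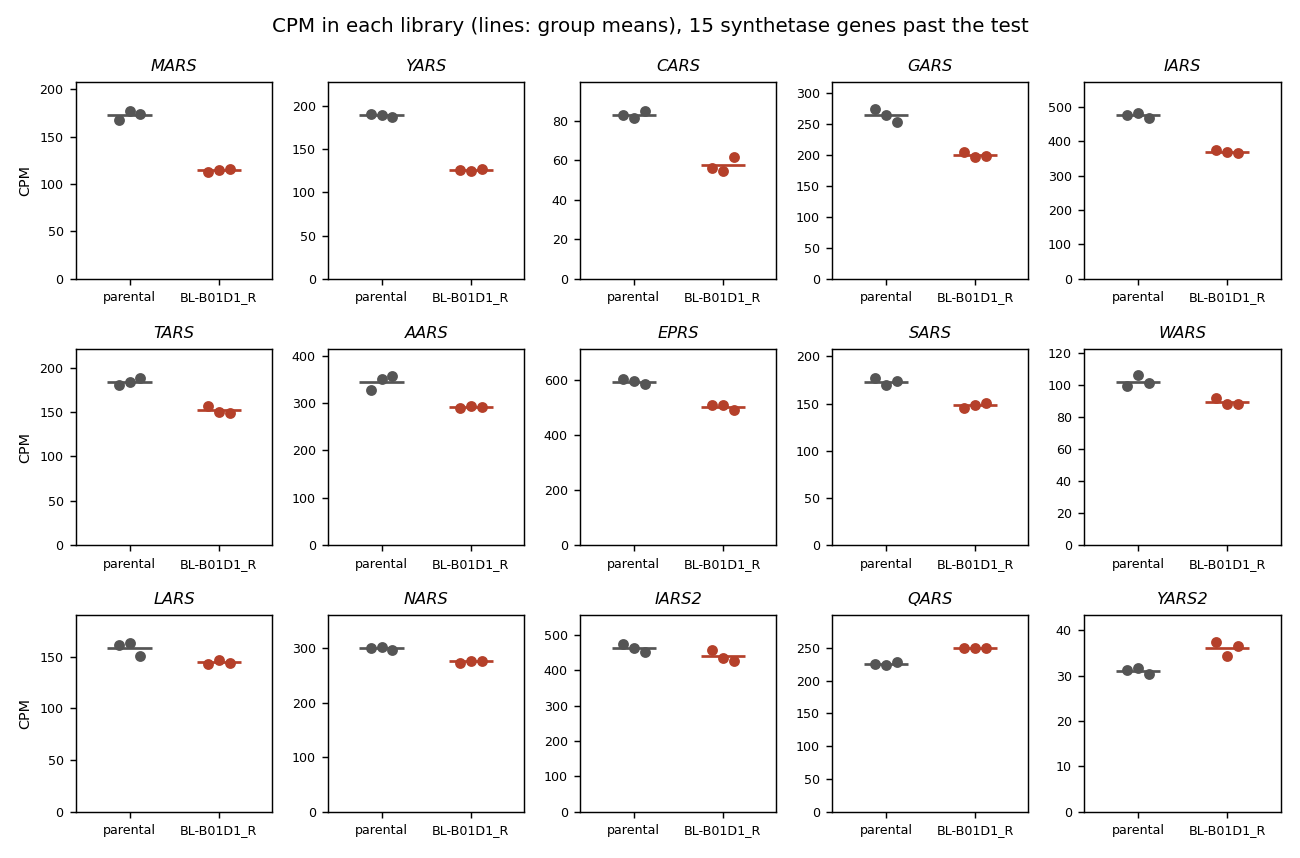
CPM (y axis, from 0) in each of the 3 parental and 3 BL-B01D1_R libraries (x axis) for the 15 synthetase genes that passed the test, with lines at the group means. In 12 panels, MARS to NARS, all resistant points lie under all parental points; in QARS and YARS2 they lie above, and in IARS2 the groups overlap.

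All 12 cytosolic genes that fell had every resistant library under every parental library, as did 22.8% of all tested genes. The opposite held for QARS (ENSG00000172053; chr3:49095932-49105135, reverse strand), the glutaminyl enzyme of the multisynthetase complex. It was the only cytosolic synthetase that passed the test as higher, in the main fit and in each of the 17 alternative fits. QARS was at 226, 224 and 228 CPM in parental and 249.7, 249 and 251 CPM in resistant libraries. The increase of 10.6% (log2 fold change 0.15, SE 0.031, FDR 1.78e-04, edgeR) was several times the SD of either group.

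Cytosolic synthetases that did not pass the test were FARSA, DARS, RARS, HARS, KARS, FARSB and VARS, with log2 fold changes from -0.06 to 0.03. The 95% intervals of their ratios of resistant to parental levels lay between 0.909 and 1.07, so that changes as large as those of TARS or AARS were outside them. FARSA and FARSB, the subunits of the phenylalanyl enzyme, had log2 fold changes of -0.06 and 0.03 with overlapping libraries in both. KARS, the other gene that serves both compartments, was at 191, 178 and 180.2 CPM in parental and 186, 179.7 and 187 CPM in resistant libraries (log2 fold change 0.01, FDR 0.849, edgeR). Parental and resistant libraries of KARS were interleaved. KARS overlaps TERF2IP by 858 bases on the opposite strand, and TERF2IP had 67.1% as many counts and a log2 fold change of 0.23.

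The genes of the ATF4-responsive list accounted for every cytosolic gene that fell. Of its 13 members, 12 were lower and VARS did not pass the test, with 329, 326 and 334 CPM in parental and 337, 331 and 345 CPM in resistant libraries (FDR 0.39, edgeR). Of the 7 cytosolic genes outside the list, 0 were lower and QARS was higher, in edgeR's test and in limma-voom alike. Of these 7 genes, 0 had a resistant group entirely under the parental one. Over all tested genes, 18.4% passed as lower (23.5% at a mean of 20 CPM or more) and 22.8% had such a resistant group. A count of 0 among 7 genes is not far from these shares. The median log2 fold change was -0.24 in the list and -0.02 outside it. The list was written down with results for ATF4 targets in these libraries already known, so its direction is not independent evidence. ATF4 mRNA itself was at 436, 415 and 426 CPM in parental and 315, 323 and 332 CPM in resistant libraries (log2 fold change -0.395, FDR 9.17e-15, edgeR). These data do not measure ATF4 protein, and whether ATF4 has a part in the falls of the synthetase genes was not tested. DDIT3, the stress-response gene that overlaps MARS and another known ATF4 target, did not pass the test (log2 fold change -0.06, FDR 0.742, edgeR). ASNS, the asparagine synthetase and also a known ATF4 target, was expressed at a low level. It had a log2 fold change of -0.45 (FDR 0.013, edgeR) with overlapping libraries. The ASNS call was lost with DESeq2 (FDR 0.0519), with limma on log2(FPKM + 1) (FDR 0.113), without parental library 1 (log2 fold change -0.29, edgeR FDR 0.158) and without resistant library 2 (FDR 0.113).

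The cytosolic genes were also grouped by membership in the multisynthetase complex. Within the complex, the 4 members on the list (MARS, IARS, EPRS and LARS) were all lower, with a median log2 fold change of -0.30. The 4 members outside the list (QARS, KARS, RARS and DARS) had a median of -0.0036, and none of them was lower. Outside the complex, 8 of the 12 cytosolic genes were lower. Class I and class II members were found on both sides, with 6 of 9 cytosolic class I genes and 5 of 10 class II genes lower, apart from EPRS, whose domains belong to both classes. These counts describe the lists and were not tested against each other. Of all tested genes, 18.4% passed as lower, and 23.5% of those with a mean of 20 CPM or more. A count of 0 among 4 genes is not far from these shares.

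**Figure D3:**
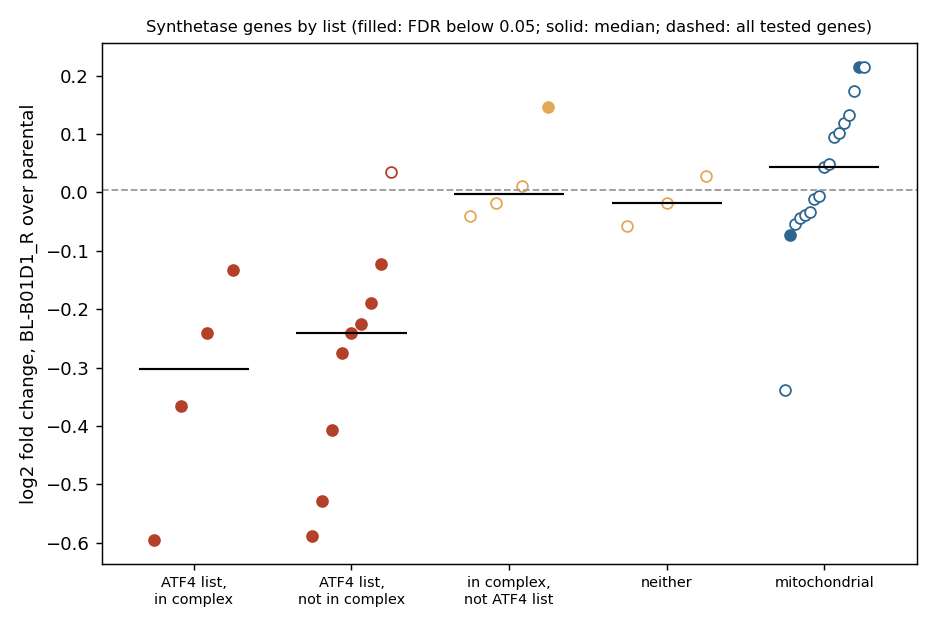
Log2 fold change (y axis) of each synthetase gene by list (x axis), with filled points for an FDR of less than 0.05, a solid line at the median of each list and a dashed line at the median of all tested genes. Genes of the ATF4-responsive list have medians of -0.30 (in the multisynthetase complex) and -0.24 (outside it), against -0.0036 and -0.02 for the remaining cytosolic genes and 0.04 for mitochondrial genes. The list was written with results for ATF4 targets in these libraries already known.

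Of the mitochondrial synthetases, 15 of 17 did not pass the test. The log2 fold changes of the 17 genes ran from -0.34 (SARS2) to 0.21 (PARS2), with 8 below 0. YARS2 (ENSG00000139131; chr12:32727490-32755902, reverse strand), the mitochondrial tyrosyl enzyme, was at 31.2, 31.8 and 30.4 CPM in parental and 37.4, 34.4 and 36.5 CPM in resistant libraries. All resistant libraries exceeded all parental ones, a pattern shared by 22.1% of tested genes, and the log2 fold change was 0.21 (SE 0.067, FDR 0.0104, edgeR). Without resistant library 1 the FDR was 0.0600. DNM1L overlaps YARS2 by 18161 bases on the opposite strand, and it had 378% as many counts and a log2 fold change of -0.10.

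IARS2 (ENSG00000067704; chr1:220094102-220148041, forward strand), the mitochondrial isoleucyl enzyme, was the most abundant mitochondrial member. It was at 474, 464 and 451 CPM in parental and 458, 435 and 428 CPM in resistant libraries, and the first resistant library lay above the third parental one. IARS2 fell by 4.9% (log2 fold change -0.07, SE 0.029) and passed narrowly (FDR 0.0461, edgeR). It no longer passed without parental library 1 (FDR 0.150), parental library 2 (FDR 0.0992), resistant library 2 (FDR 0.166) or resistant library 3 (FDR 0.230). EPRS lies 47443 bases away on chromosome 1, in the opposite orientation, and fell by 15.4%.

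Among the other 15 mitochondrial genes, TARS2, WARS2 and FARS2 had every resistant library above every parental one, with log2 fold changes of 0.10, 0.12 and 0.17 and FDRs of 0.0634, 0.234 and 0.101 (edgeR). TARS2 passed as higher without parental library 3 (FDR 0.0278), CARS2 without parental library 1 (FDR 0.0492), RARS2 without resistant library 2 (FDR 0.0349) and PARS2 without resistant library 1 (FDR 0.0256). MARS2, which follows IARS2 in level per gene length, had a log2 fold change of -0.0056. It was at 98.0, 95.2 and 94.3 CPM in parental and 98.2, 92.7 and 95.5 CPM in resistant libraries, and the groups overlapped. SARS2, the mitochondrial seryl enzyme, had the fewest counts of any member, with 78, 68 and 53 in parental and 55, 39 and 62 in resistant libraries. With so few counts the 95% interval of its ratio, from 0.606 to 1.03, was too wide to place it with either set. SARS2 overlaps MRPS12 by 349 bases on the opposite strand, and MRPS12 had 1552% as many counts. AC011455.2, listed as protein-coding, overlaps SARS2 by 15493 bases on the same strand and had 0.28% as many counts. Whether reads that fall on both genes were left uncounted was not tested, so the low counts of SARS2 may understate its level. Standard errors of the log2 fold change had a median of 0.065 over the mitochondrial genes and 0.035 over the cytosolic ones, so a change of the size seen in NARS could be found less readily in mitochondrial genes.

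To compare genes with each other, counts were scaled by gene length to FPKM. The lengths are those of the table, which exceed the main transcript of some genes, so an order of levels between genes depends on them. Mean FPKM over all libraries ran from 6.98 (CARS) to 101 (EPRS) for cytosolic genes, with a median of 39.6, and from 1.14 (SARS2) to 108 (IARS2) for mitochondrial genes, with a median of 10.6. EPRS, AARS and NARS were the highest cytosolic members, at 109 ± 1.69, 76.8 ± 3.68 and 73.4 ± 0.732 FPKM (SD, n = 3) in parental cells and 92.4 ± 1.82, 64.9 ± 0.396 and 67.4 ± 0.626 FPKM in resistant cells. AARS stood above NARS in parental means, with overlapping libraries, and under it in every resistant library. IARS2, at 111 ± 2.69 FPKM in parental and 106 ± 3.80 FPKM in resistant cells, was above EPRS in each of the 6 libraries. The ranges of the 2 genes overlapped in parental cells and did not overlap in resistant cells.

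**Figure D4:**
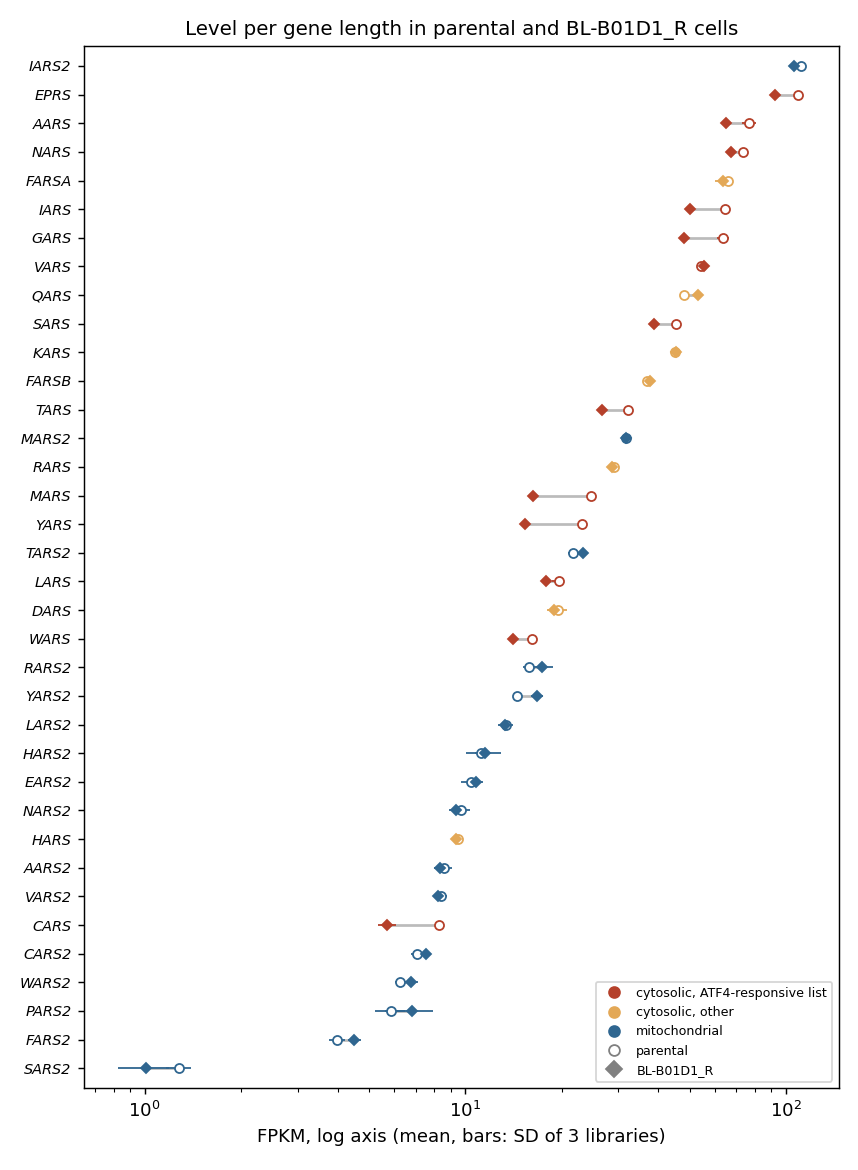
Mean FPKM of the synthetase genes reported by name (x axis, log scale, bars for the SD of 3 libraries) in parental (open circles) and BL-B01D1_R cells (diamonds), ordered by parental level (y axis). MARS moved from 24.6 to 16.3 and YARS from 23.1 to 15.4 FPKM, whereas YARS2 went from 14.5 to 16.8 FPKM.

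Summed over the 20 cytosolic genes, the level was 868, 867 and 858 FPKM in parental libraries and 769, 764 and 774 FPKM in resistant libraries, so it fell by 11%. The sum over the 13 genes of the ATF4-responsive list went from 611 ± 3.02 to 513 ± 1.43 FPKM (SD, n = 3). Over the other 7 cytosolic genes it was 254 ± 3.51 and 256 ± 5.24 FPKM. Because the list was written with results for ATF4 targets already known, this split is not independent evidence. The sum of the 17 mitochondrial genes was 317, 309 and 307 FPKM in parental and 319, 305 and 311 FPKM in resistant libraries, and here the groups overlapped. IARS2 alone supplied 111 of the mean of 311 FPKM in parental cells and 106 of 312 FPKM in resistant cells, so this sum depends much on IARS2. The ratio of cytosolic to mitochondrial sums was 2.78 ± 0.039 in parental cells and 2.47 ± 0.050 in resistant cells. GARS and KARS, which serve both compartments, were counted in the cytosolic sum only. From parental to resistant cells, mean GARS went from 63.6 to 48.0 FPKM and mean KARS from 45.0 to 45.3 FPKM.

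For each amino acid with separate enzymes, the cytosolic gene was set against its mitochondrial counterpart in the same library, which gave 18 pairs. EPRS and FARS2 each enter a pair with 2 partners. The log2 ratio of cytosolic to mitochondrial CPM was lower in resistant cells in 15 of the 18 pairs, and in 10 of them every resistant library was under every parental one (p = 0.1 in each of the 10 by a two-sided exact permutation test, the smallest p that 3 libraries against 3 allow). In 9 of these 10 pairs the cytosolic gene by itself had groups that did not overlap, as 22.8% of single genes did in that direction. No such share was computed for ratios of other genes, and pairs with a gene in common are not independent. The median difference was -0.22.

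The tyrosine pair moved most, since YARS fell and YARS2 rose. Its log2 ratio went from 2.61 ± 0.027 to 1.81 ± 0.051 (SD, n = 3), a difference of -0.80. On the FPKM scale YARS exceeded YARS2 by a ratio of 1.6 in parental cells and stood at 0.916 of it in resistant cells. This change of order depends on the listed lengths, 8212 bases for YARS and 2152 for YARS2. In CPM, YARS stayed above YARS2, with means of 189 against 31.1 in parental cells and 126 against 36.1 in resistant cells. The cysteine pair also changed its order in FPKM, with a ratio of CARS to CARS2 of 1.17 in parental and 0.760 in resistant cells. Here the listed lengths were similar (10037 and 10460 bases), and the order changed in CPM as well. ING1 overlaps CARS2 by 868 bases on the opposite strand and had 40.0% as many counts. Its log2 fold change was -0.23 (FDR 0.0094, edgeR), and its effect on the counts of CARS2 was not tested. In the methionine pair, MARS was the lower gene in FPKM in both groups, at 0.776 and 0.515 of MARS2. In CPM it was the higher gene in both, with 7028 bases listed for MARS and 3019 for MARS2. Isoleucine was the pair in which both genes passed the test as lower, and the log2 ratio of IARS to IARS2 still fell, from 0.043 ± 0.026 to -0.25 ± 0.031.

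**Figure D5:**
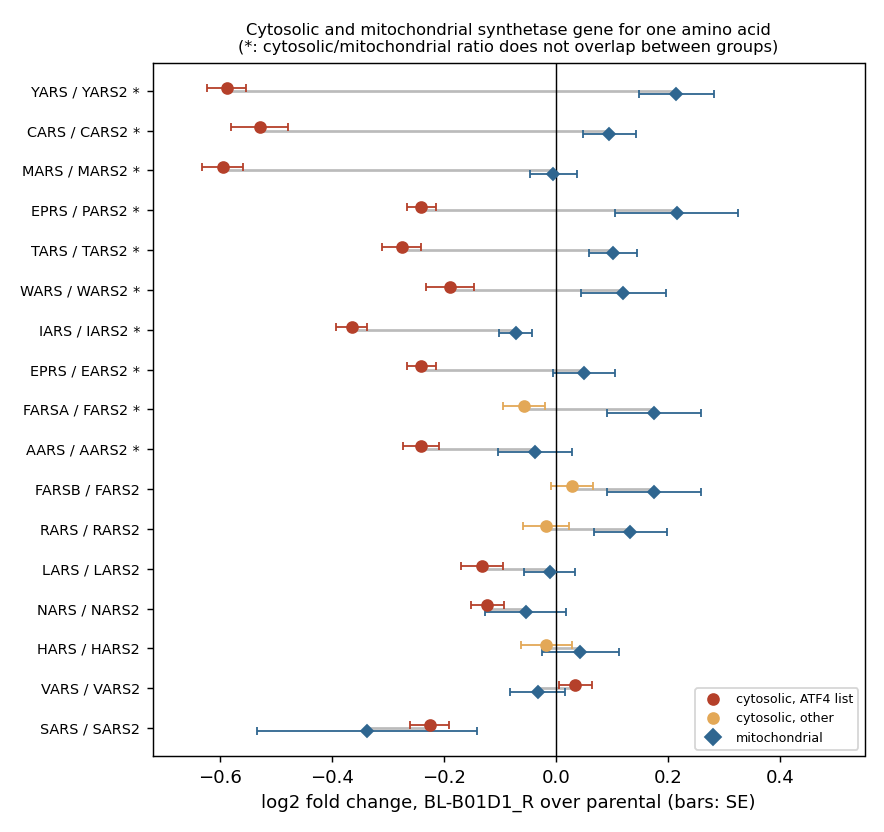
Log2 fold changes (x axis, bars for the SE) of the cytosolic (circles) and mitochondrial (diamonds) synthetase gene of each pair reported by name (y axis), ordered by the change of their ratio. An asterisk marks the 10 pairs whose cytosolic to mitochondrial ratio did not overlap between the groups, from YARS with YARS2 at the top to AARS with AARS2.

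The valine and serine pairs were among the 3 whose ratio was not lower, with differences of 0.067 and 0.13 and overlapping groups (p = 0.3 and 0.6 by the same exact permutation test). In the histidine pair, HARS and HARS2 lie head to head on chromosome 5 and overlap by 437 bases. Their log2 fold changes were -0.02 and 0.04, and neither passed the test. HARS2 was the more variable of the pair, at 47.2, 36.9 and 44.6 CPM in resistant libraries against 43.2, 41.6 and 40.2 CPM in parental ones. ZMAT2 overlaps HARS2 by 639 bases on the same strand and had 143% as many counts. Its log2 fold change was 0.32 (FDR 2.36e-06, edgeR), and its effect on the counts of HARS2 was not tested.

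Genes that act next to the synthetases were listed separately, 25 in all, of which 24 were tested, 5 were lower and 3 were higher. These shares were near those over all tested genes, 18.4% and 17.1%. The exception was EEF1G, listed at 0 in every library. Whether its reads were lost in counting was not tested, so the 0 is not read as absence of expression. XPOT, the exporter of tRNA from the nucleus, fell most, from 430.0, 422 and 419 CPM in parental to 325, 310.2 and 301 CPM in resistant libraries (log2 fold change -0.44, SE 0.030, FDR 4.75e-16, edgeR). TRNT1, which adds the CCA end to tRNA, rose instead, from 30.9, 31.0 and 26.7 CPM to 34.3, 40.0 and 36.2 CPM (log2 fold change 0.31, FDR 6.37e-04, edgeR). Both genes had groups that did not overlap.

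Of the scaffold genes, AIMP1 was lower (log2 fold change -0.10, FDR 0.0403, edgeR), and AIMP2 and EEF1E1 did not pass the test, at -0.05 and -0.08. AIMP1 passed in 7 of 11 alternative fits (DESeq2 FDR 0.0997) and in 1 of the 6 fits without a library, that without resistant library 1, with edgeR FDRs of 0.0696 to 0.185 in the others. Among the partners of mitochondrial charging, GATC, a subunit of the amidotransferase that makes glutaminyl-tRNA, was lower (-0.22, FDR 0.0224, edgeR), whereas QRSL1, GATB and MTFMT did not pass. GATC was no longer called with DESeq2 (FDR 0.0727), with limma on log2(FPKM + 1) (FDR 0.0508), or in edgeR without parental library 1 (FDR 0.107), resistant library 1 (FDR 0.120) or resistant library 3 (FDR 0.0605). SECISBP2, needed to read selenocysteine codons, was the one gene of its list of 4 that passed, as lower (-0.18, FDR 9.23e-04, edgeR). The elongation factors that carry charged tRNA to the ribosome differed among themselves. EEF1A1 was higher (0.22, FDR 2.66e-13, edgeR), its paralog EEF1A2 was lower (-0.24, FDR 1.78e-07, edgeR), and mitochondrial TUFM was higher (0.10, FDR 0.0054, edgeR). The 3 proofreading genes and TARSL2, a threonyl-tRNA synthetase paralog outside the selection rule, did not pass the test. SLC7A5, which imports large neutral amino acids such as leucine, tyrosine and methionine, was at 4795 to 4884 CPM in parental and 499.9 to 511 CPM in resistant libraries (log2 fold change -3.26, FDR 1.20e-51, edgeR).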

How the data were processed

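Per the labels and the paper's methods, the authors aligned reads to hg38 with HISAT2 (2.0.5) and deposited raw counts per gene from featureCounts (1.5.0-p3). The annotation release and the strand setting are not given in the sources used here, so reads of overlapping genes on opposite strands may not be told apart. Although the sample labels name mouse, the cell line and the gene identifiers are those of human, which was taken as the organism. No human sequence was used here. The number of per-sample columns not used was 0.

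Counts were filtered with filterByExpr, scaled with TMM and fitted in edgeR (4.0.16, under R 4.3.3) by the quasi-likelihood method, with Benjamini-Hochberg adjustment over 17142 genes. The SE is the log2 fold change divided by the square root of F, and 95% intervals use 1.96 SE. FPKM divide TMM-scaled CPM by gene length in kilobases as listed by the authors. The common biological coefficient of variation, estimated over all tested genes together, was 3.51%. No 2 libraries agreed within sampling noise (chi-square per degree of freedom 1.77 or more). Alternatives were limma-voom and other limma fits (limma 3.58.1), DESeq2 (1.42.0), other scalings and filters, the replicate number as a block, and each library left out.

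Named with full values are the members past the test (up to 14 with the largest changes), the 3 highest and the lowest per compartment, GARS, KARS, and pairs with opposite calls. Other genes are named to complete counts. Values of 1 member that the rule would name are not reported here, although it is included in the counts, sums and medians. The members and lists were chosen with earlier results of these data known. On simulated counts for 17142 genes, the fit recovered 72 of 100 genes changed by a log2 value of 0.5. It recovered 89 of 100 changed by 1, with 10 false calls. Only those genes were changed in the simulation, and all genes had the same dispersion. In the libraries many more genes differed, so recovery there may not be the same.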

Additional observations from a re-analysis of the deposited data

How the results depend on the processing

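The counts of cytosolic genes that passed the test, 12 lower and 1 higher, and the count of 0 genes past an absolute log2 fold change of 1, were the same in the 11 other fits and the 6 fits without 1 library. The single mitochondrial call as lower, IARS2, was lost (0 genes) with DESeq2, limma on log2(FPKM + 1), the upper quartile, a minimum of 10 counts per library, no filter and protein-coding genes only, and the count ranged from 0 to 1 with 1 library left out. The mitochondrial count of higher genes was 2 with protein-coding genes only and ranged from 1 to 2 with 1 library left out (2 without parental library 1, parental library 3 or resistant library 2). The median of the cytosolic genes, -0.16, was -0.15 with limma on log2(FPKM + 1), -0.18 with library size alone and -0.15 with protein-coding genes only, and ranged from -0.18 to -0.14 with 1 library left out. That of the mitochondrial genes, 0.043, ranged from 0.0045 (without parental library 2) to 0.070. The cytosolic sum fell by 12% with library size alone and by 10.6% to 11.3% with 1 library left out. The mitochondrial sum changed by 0.298%, and by -0.759% to 1.41% with 1 library left out.

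Log2 fold changes that changed sign were those of genes near 0 that did not pass in any such fit. KARS was -0.0053 with library size alone, LARS2 0.0022 and MARS2 0.0082 with protein-coding genes only. With 1 library left out, DARS ranged from -0.082 to 0.0126, KARS from -0.0107 to 0.042, NARS2 from -0.089 to 0.0018, AARS2 from -0.076 to 0.0020, LARS2 from -0.060 to 0.0184, MARS2 from -0.025 to 0.0157 and HARS2 from -0.030 to 0.138. Over the 37 genes, 599 of 629 values kept their direction and side of the threshold. The cause of each change was not tested. The replicate numbers do not pair the libraries (correlations of same-numbered deviations from -0.0081 to -0.020). With the number as a block, 12 cytosolic genes were lower and 1 higher, 1 mitochondrial gene was lower and 1 higher, and the medians were -0.16 and 0.038. Low counts limit mostly SARS2, PARS2 and FARS2.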
